A study of Homo sapiens with 6 samples.

Results

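The genes described here are 8 genes of cholesterol handling, namely the lipoprotein receptors VLDLR and LRP8, the receptor degrader MYLIP, the lysosomal cholesterol exporters NPC1 and NPC2, the sterol carrier STARD4 and the efflux transporters ABCA1 and ABCG1. They were taken by symbol from the 25445 rows of the deposited count table, and each matched 1 row. The counts came from RNA sequencing of MHCC-97H cells, a human line established from liver cancer. Of the 6 libraries, 3 were from cells given 10 μM of compound 6j, a sophoridine derivative, and the other 3 were from cells given solvent alone, called non-treated cells below. Both groups were harvested after 16 h, and all cells were grown in DMEM with fetal bovine serum.

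Animal cells balance cholesterol by making it, by taking up lipoproteins and by exporting what is in excess. When sterols in the ER membrane are low, SREBP-2 is cleaved and turns on the genes of synthesis and uptake, while LXR, which senses oxysterols, turns on genes of efflux and the ligase MYLIP, which sends lipoprotein receptors to the lysosome. Cholesterol from ingested lipoproteins leaves the lysosome by way of NPC2 and NPC1, and the liver is the main organ that clears lipoproteins from blood. STARD4 and NPC1 are treated below as SREBP-type genes, and ABCA1, ABCG1 and MYLIP as LXR-type genes.

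The total count per library ranged from 31533403 to 37919879 in non-treated cells and from 35002336 to 38018349 in 6j treated cells. Levels are in CPM, each count divided by the TMM normalized size of its library and scaled to the usual common total. A gene was called at a Benjamini-Hochberg adjusted p under 0.05 over all 15957 rows tested in edgeR's quasi-likelihood test, together with a fold change above 1.5. The labels do not say that libraries came from separate cultures, so p-values measure only the spread between these libraries. Liver secretory markers were at or near 0, with at most 8 counts of ALB, 7 of AFP and 2 of FGB in any library, and HNF4A was at 0.546 to 1.40 CPM. The epithelial keratin gene KRT8 was at 605 CPM in non-treated and 404 CPM in 6j treated cells on average, COL1A1 was at 203 to 275 CPM over the libraries, and the blood marker PTPRC had no count. The 6 liver cell markers summed to 905 to 1110 CPM in non-treated and 706 to 824 CPM in 6j treated cells, and the 5 markers of other cell types to 216 to 276 CPM and 204 to 273 CPM. Nearly all of the first sum was KRT8 and the keratin gene KRT18 (430 CPM in non-treated and 344 CPM in 6j treated cells on average). Its fall was thus one of keratins. HNF4A had at most 53 counts in any library and was not called (log2 fold change 0.21, adjusted p = 0.798 in edgeR), which does not show that it was unchanged. Nearly all of the second sum was COL1A1. The part of these differences in the results below was not tested.

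Of the 8 genes, 2 were called, and both were higher in 6j treated cells, namely STARD4 and NPC1. Of all rows in the fit, 3.60% were called, with 2.48% as higher and 1.12% as lower. All 8 passed the filter on low counts, and their median log2 fold change was 0.19, against 0.00 over all rows tested. Every 6j treated library exceeded every non-treated one for VLDLR, NPC1, NPC2 and STARD4 and below them for MYLIP, and such a separation was seen in 31.7% of all rows. With the replicate number as a block, VLDLR was called as well, which made 3 of the 8, against 6.47% of all rows under that fit (4.01% higher, 2.46% lower). None of the 8 was called without non-treated replicate 1, without 6j treated replicate 2 or without 6j treated replicate 3, while 1 was called without non-treated replicate 3, 3 without 6j treated replicate 1 and 4 without non-treated replicate 2. In that order, these fits called 186 of 16315, 193 of 16295, 527 of 16358, 379 of 16364, 772 of 16301 and 507 of 16373 rows. In the 3 fits with no call among the 8, the log2 fold changes were 0.82, 0.74 and 0.79 for NPC1 and 0.71, 0.62 and 0.79 for STARD4, against 0.80 and 0.77 with all libraries. In such bulk RNA, fewer cells of a type and less RNA per cell cannot be told apart.

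**Figure D1:**
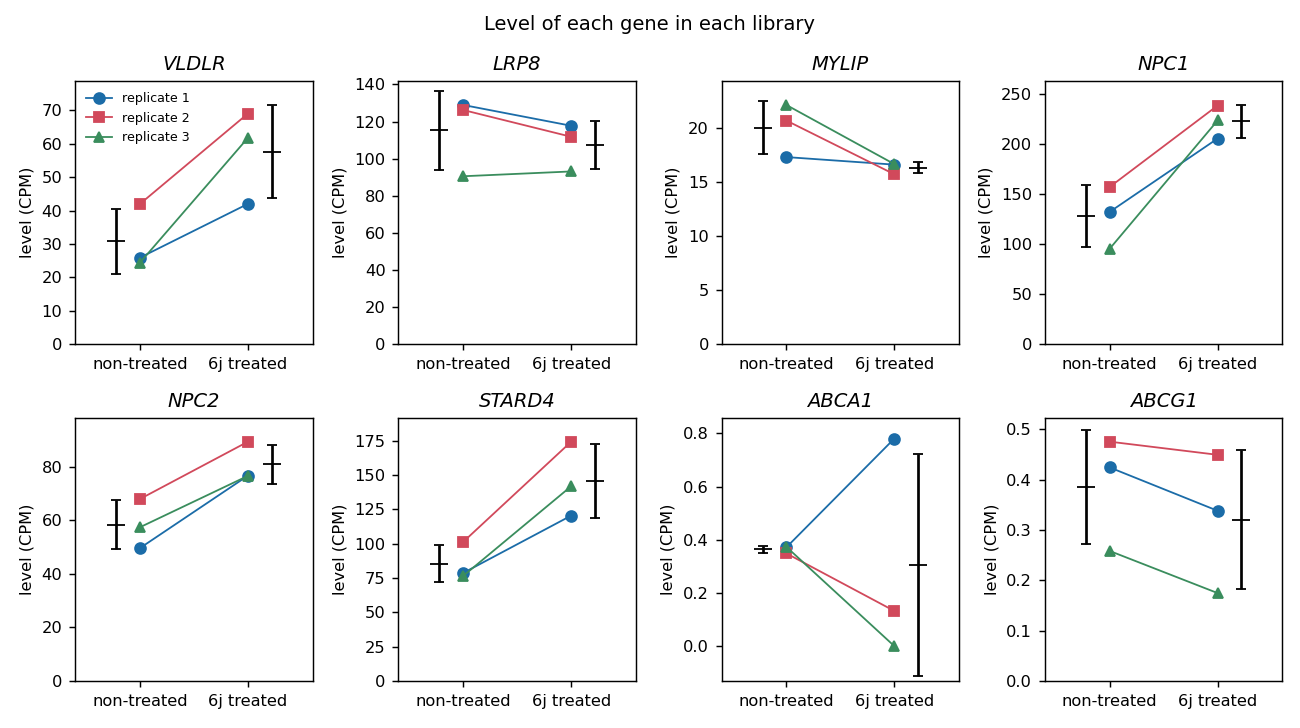
Level of each of the 8 genes in CPM (vertical axes, each on its own scale) in non-treated and 6j treated cells, with lines joining libraries of the same replicate number and black bars for the mean ± SD of 3 libraries. For NPC1 the 6j treated libraries sit between 205 and 238 CPM and the non-treated ones between 95.1 and 157 CPM, while ABCA1 and ABCG1 stay under 1 CPM in all libraries.

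The sequences just upstream of 4 genes are shown because these genes are the SREBP-type gene STARD4, the receptor gene VLDLR and 2 LXR-type genes. They are RefSeq promoter windows (GRCh38.p14) of the 250 bases before the annotated start, found for 7 of the 8 genes, and are printed 5′ to 3′ on the gene's strand without any base that lies in an annotated exon. Capitals mark the letters CCAAT, the box bound by NF-Y, and CCACG, the second part of the ER stress element, each on either strand.
STARD4 (chr5:111512591-111512785, minus strand): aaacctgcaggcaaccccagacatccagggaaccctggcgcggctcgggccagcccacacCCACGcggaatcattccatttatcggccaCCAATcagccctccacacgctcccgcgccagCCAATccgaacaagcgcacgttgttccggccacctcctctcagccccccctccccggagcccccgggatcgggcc
VLDLR (chr9:2621537-2621786, plus strand): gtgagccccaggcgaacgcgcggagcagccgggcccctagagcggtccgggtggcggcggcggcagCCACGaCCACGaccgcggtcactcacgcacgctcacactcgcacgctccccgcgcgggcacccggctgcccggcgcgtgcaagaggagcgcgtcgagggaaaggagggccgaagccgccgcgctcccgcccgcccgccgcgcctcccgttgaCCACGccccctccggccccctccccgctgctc
MYLIP (chr6:16128836-16129085, plus strand): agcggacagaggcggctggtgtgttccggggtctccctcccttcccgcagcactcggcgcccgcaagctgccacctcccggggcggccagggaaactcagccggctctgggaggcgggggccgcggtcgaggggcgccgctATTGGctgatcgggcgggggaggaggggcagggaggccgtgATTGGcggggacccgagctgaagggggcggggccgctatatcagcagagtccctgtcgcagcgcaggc
ABCA1 (chr9:104928238-104928405, minus strand): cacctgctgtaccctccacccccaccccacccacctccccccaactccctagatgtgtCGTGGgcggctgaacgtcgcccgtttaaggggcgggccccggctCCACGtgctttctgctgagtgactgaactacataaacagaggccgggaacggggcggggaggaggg
CCAAT was found in the windows of STARD4, MYLIP and NPC2 and in 32.0% of 35093 RefSeq promoter windows of that length. CCACG was found in those of STARD4, VLDLR, LRP8 and ABCA1 and in 33.5% of all windows. No window of the 7 held the sterol regulatory element letters TCACNCCAC, which were in 0.883% of all windows, or the LXR element DR4 (AGGTCA repeated after any 4 bases), which was in 0.0142%. The same was true of the full ER stress element (CCAAT and CCACG with 9 bases between them, 0.0741% of all windows) and of the amino acid response element letters TGATGNAA (3.15%). The Sp1 letters GGGCGG were in all 7 windows and in 42.6% of all windows, and the E-box CACGTG was in that of ABCA1, where it overlaps CCACG, and in 6.34% of all windows. All were searched on both strands of the whole windows, bases not printed included. Only these letters were sought, so a site that differs from them would be missed, and no match does not mean no site. Likewise, a match in these letters is not a binding site. The window of NPC1 lies wholly within annotated exons and is not printed.

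VLDLR encodes a receptor that takes up triglyceride-rich lipoproteins and binds the signaling protein reelin (chromosome 9, 2621834 to 2660053, GRCh38, plus strand). Its level was 25.9, 42.0 and 24.4 CPM in replicates 1, 2 and 3 of the non-treated cells and 42.0, 69.0 and 61.8 CPM in those of the 6j treated cells. The groups touched without crossing, as the lowest 6j treated library had 42.00 CPM and the highest non-treated one 41.97 CPM. The mean was 30.8 ± 9.74 CPM in non-treated and 57.6 ± 13.99 CPM in 6j treated cells (SD, n = 3 each). This log2 fold change of 0.91 (standard error 0.27, 95% interval 0.26 to 1.56) was not called (adjusted p = 0.0919 in edgeR). When the replicate number was a block, VLDLR was called as higher (log2 fold change 0.92, standard error 0.13, adjusted p = 0.00306 in edgeR), as it was by DESeq2 (adjusted p = 0.000702). Within replicate numbers, the log2 changes were 0.70, 0.72 and 1.34. The highest non-treated library was replicate 2, and without it VLDLR was called (log2 fold change 1.20, adjusted p = 0.028 in edgeR), as it was without 6j treated replicate 1 (1.09, adjusted p = 0.0451). Its exons overlap those of the antisense gene VLDLR-AS1 over 7.90% of their length, and reads of the pair cannot be told apart without strand.

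LRP8 encodes the other reelin receptor, best known from neurons (chromosome 1, 53242364 to 53328070, minus strand). Its level was 129, 126 and 90.5 CPM in non-treated cells and 118, 112 and 93.1 CPM in 6j treated cells. The groups overlapped, with replicate 3 lowest in both of them. The log2 fold change was −0.10 (95% interval −0.43 to 0.23, adjusted p = 0.722 in edgeR), so that an increase of the size seen for VLDLR lay outside the interval. The difference between the receptors' changes was not tested itself.

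MYLIP encodes the E3 ubiquitin ligase that marks lipoprotein receptors, VLDLR and LRP8 among them, for degradation, and is a target of LXR (chromosome 6, 16129125 to 16148248, plus strand). The non-treated libraries had 17.3, 20.6 and 22.1 CPM and the 6j treated libraries 16.6, 15.7 and 16.6 CPM. All 6j treated libraries were below all non-treated ones, though by less than 1 CPM for replicate 1. The log2 fold change was −0.30 (standard error 0.12, 95% interval −0.57 to −0.02) and did not pass after adjustment (adjusted p = 0.166 in edgeR). It was also not called with the replicate block (adjusted p = 0.0717 in edgeR) or by DESeq2 (adjusted p = 0.171).

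NPC1 encodes the membrane protein that moves cholesterol out of the lysosome (chromosome 18, 23506184 to 23586898, minus strand). Its 3 non-treated libraries had 132, 157 and 95.1 CPM, and the 6j treated libraries had 205, 238 and 223 CPM. Every 6j treated library was above every non-treated one, and non-treated replicate 3 was the lowest library. NPC1 rose 1.74-fold, from 128 ± 31.0 to 222 ± 16.5 CPM (SD, n = 3 each), and the test gave a log2 value of 0.80 with a standard error of 0.17 (adjusted p = 0.0264 in edgeR). By replicate number the log2 changes were 0.64, 0.60 and 1.23. The call was lost without non-treated replicate 1 (adjusted p = 0.0993 in edgeR), without 6j treated replicate 2 (0.113) and without 6j treated replicate 3 (0.0714). RMC1 on the opposite strand covers 5.98% of the NPC1 exons and had 830 to 1298 counts per library, against 3311 to 9004 of NPC1.

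NPC2 encodes the soluble lysosomal protein that hands cholesterol to NPC1 (chromosome 14, 74476192 to 74494177, minus strand). Its levels were 49.7, 68.0 and 57.4 CPM in non-treated and 76.7, 89.5 and 76.7 CPM in 6j treated cells, without overlap. The log2 fold change of 0.47 (standard error 0.12) passed the adjusted p threshold (adjusted p = 0.0438 in edgeR) but was a 1.39-fold change, under the 1.5-fold threshold. Both partners of lysosomal export were therefore higher in all 6j treated libraries than in all non-treated libraries. NPC2 was called as a change above 1.5-fold only without non-treated replicate 2 (log2 fold change 0.60, adjusted p = 0.0347 in edgeR). Without any other library, its adjusted p no longer passed, at 0.0594 to 0.174 in edgeR.

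STARD4 encodes a cytosolic carrier that moves sterols between membranes, and its transcription is known to follow SREBP-2 (chromosome 5, 111496033 to 111512590, minus strand). The non-treated libraries had 78.6, 101 and 76.5 CPM and the 6j treated ones 120, 174 and 142 CPM. The groups did not overlap, and replicate 2 was the highest of each. The mean of STARD4 rose 1.70-fold, from 85.4 ± 13.7 to 146 ± 27.1 CPM (SD, n = 3 each), which is 0.77 on the log2 scale (standard error 0.16, adjusted p = 0.0215 in edgeR). Within replicate numbers the log2 changes were 0.61, 0.78 and 0.89, the narrowest range of the 3 genes called with the block. The call was lost without non-treated replicate 1 (adjusted p = 0.101 in edgeR) or 3 (0.0722) and without 6j treated replicate 2 (0.0842) or 3 (0.0521).

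ABCA1 and ABCG1 encode ATP-driven transporters that load cellular cholesterol onto apolipoprotein A-I and onto HDL. ABCA1 (chromosome 9, 104781002 to 104928237, minus strand) had 14, 11 and 13 counts in non-treated cells and 30, 5 and 0 counts in 6j treated cells. Most of the 35 counts in 6j treated cells (85.7%) were thus in 1 library, and the 0 in replicate 3 allows up to 0.0873 CPM, taking 3 counts as the floor. The summed count was 38 (exact Poisson 95% interval 26.9 to 52.2) in non-treated and 35 (24.4 to 48.7) in 6j treated cells, where the intervals cover counting error only. ABCG1 (chromosome 21, 42199689 to 42297244, plus strand) had 16, 15 and 9 counts in non-treated and 13, 17 and 6 counts in 6j treated cells. Both genes were under 1 CPM in all 6 libraries, and the groups overlapped. The 95% interval of the log2 fold change was −2.50 to 2.02 for ABCA1 (adjusted p = 0.912 in edgeR) and −1.505 to 0.99 for ABCG1 (adjusted p = 0.818), so that a 1.5-fold change in either direction lay within both intervals. The sign of ABCA1 turned without 6j treated replicate 2 or 3 and that of ABCG1 without 6j treated replicate 3.

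**Figure D2:**
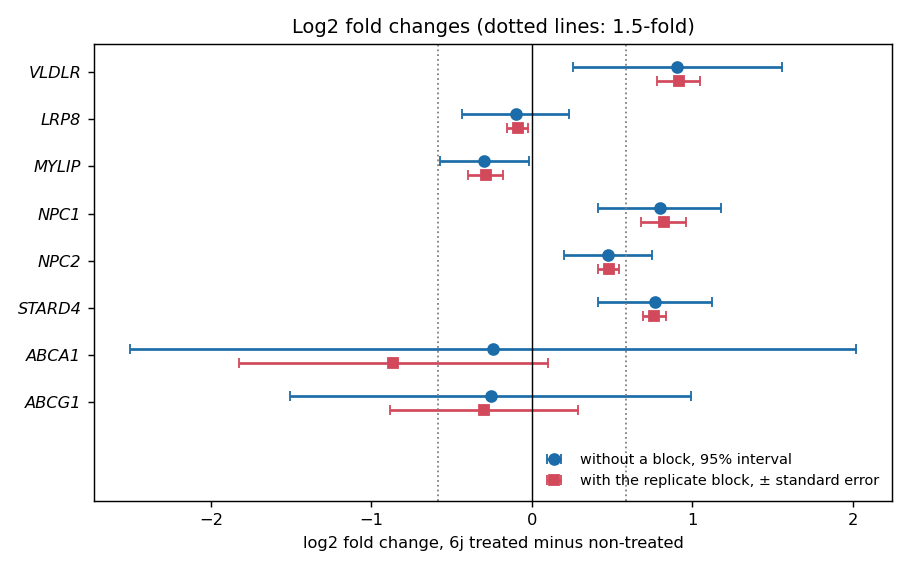
Log2 fold change of 6j treated minus non-treated cells for the 8 genes (horizontal axis) from edgeR without a block (circles, bars are 95% intervals) and with a replicate block (squares, bars are standard errors), with dotted lines at 1.5-fold. NPC1 (0.80), STARD4 (0.77) and VLDLR (0.91) lie to the right of the 1.5-fold line, and the bars of ABCA1 and ABCG1 span both sides of 0.

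Levels were compared between genes after division by exon length (GENCODE version 29), in CPM per kb. In non-treated cells the order of the mean levels was NPC2 (21.2), STARD4 (15.03), NPC1 (12.7), LRP8 (11.2), MYLIP (6.60), VLDLR (3.29), ABCG1 (0.0631) and ABCA1 (0.0321). The ranges of STARD4 and NPC1 overlapped, as did those of NPC1 and LRP8, and the other neighbours did not overlap. In 6j treated cells the mean levels of NPC2, STARD4 and NPC1 were 29.5, 25.6 and 22 CPM per kb, and LRP8 followed at 10.5. VLDLR stood at 6.17 and MYLIP at 5.37 CPM per kb, with overlapping ranges, so that the receptor and its degrader had changed places in the order of means. The efflux transporters were the lowest of the 8 in both groups, and none of the 6 libraries had either at 0.1 CPM per kb. All exons of a gene were counted in its length, which lowers the level of genes with long alternative exons.

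Set against each other, both SREBP-type genes were called as higher in 6j treated cells, and of the 3 LXR-type genes none was called in edgeR. Of the 3, only MYLIP had an unadjusted p under 0.05 in edgeR, as had 4175 of all 15957 rows tested. DESeq2 did not call MYLIP. It gave no adjusted p for ABCA1 and ABCG1 and so could not call them. The mean log2 fold change was 0.78 for STARD4 and NPC1 and −0.26 for ABCA1, ABCG1 and MYLIP, a difference of 1.05. In each library, the mean log2 CPM of the SREBP-type genes minus that of the LXR-type genes was 6.06, 6.26 and 5.89 in non-treated cells and 6.48, 7.48 and 8.21 in 6j treated cells. The groups did not overlap, but the spread was wider in 6j treated cells, where replicates 2 and 3 had few or no ABCA1 counts. With MYLIP as the only LXR-type gene, an alternative chosen after the data were seen, the values were 2.56, 2.61 and 1.95 in non-treated and 3.24, 3.69 and 3.42 in 6j treated cells. Here too the groups did not overlap, which follows from the separation of STARD4, NPC1 and MYLIP themselves. The difference of mean log2 fold changes was then 1.08. These values are a description without a test, since the genes were chosen with results of these data known.

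**Figure D3:**
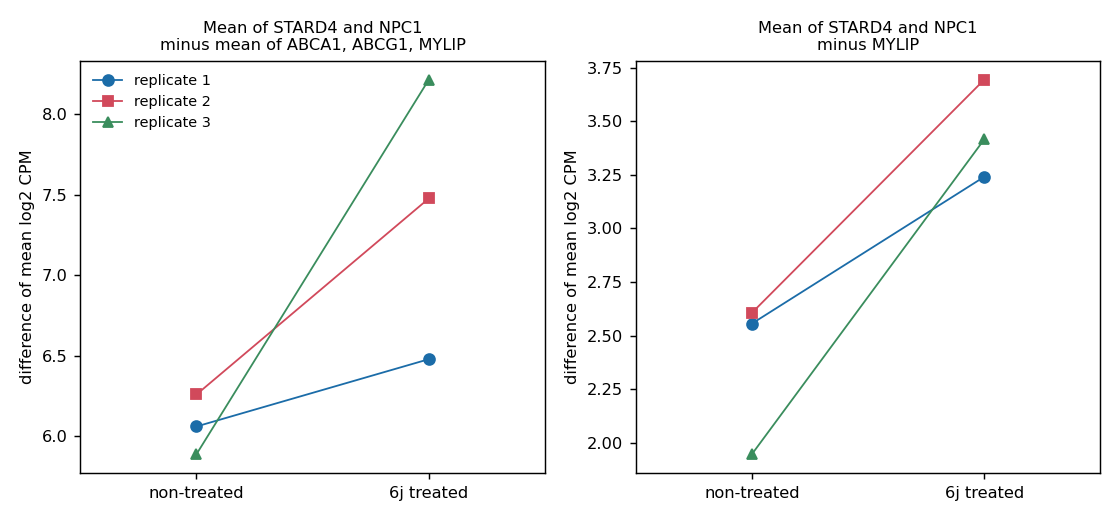
Mean log2 CPM of STARD4 and NPC1 minus that of the 3 LXR-type genes (left) or of MYLIP alone (right) in each library (vertical axes do not start at 0), with lines joining libraries of the same replicate number. On the right the non-treated libraries lie at 1.95 to 2.61 and the 6j treated ones at 3.24 to 3.69.

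The other genes of these pathways were followed by 5 lists. On the list of SREBP-type sterol genes, which hold the enzymes of cholesterol synthesis and their regulators, 10 of 21 were called, and all 10 were higher in 6j treated cells, with a list median log2 fold change of 0.59. The 10 included DHCR7, the last enzyme of one branch of the pathway (1.01, adjusted p = 0.0159 in edgeR), CYP51A1, the lanosterol demethylase (0.73, adjusted p = 0.0184), and INSIG1, which holds SREBP in the ER and is itself a SREBP target (1.33, adjusted p = 0.0293). MVD, SC5D and LSS were also called. The gene of SREBP-2 itself, SREBF2, was at 295 CPM in non-treated and 369 CPM in 6j treated cells and was not called (log2 fold change 0.32, adjusted p = 0.0579 in edgeR). With the replicate block 14 of the 21 were called, all of them higher, against 6.47% of all rows (4.01% higher). DESeq2 called 12 of the list and 774 of 22091 rows in the whole table. Without non-treated replicate 1, 3 genes of this list were called, 2 without 6j treated replicate 2 and 4 without non-treated replicate 3. In the whole table these fits called 186 of 16315, 193 of 16295 and 379 of 16364 rows.

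The list of LXR receptors and LXR-type genes had 10 of 12 members tested, with a median log2 fold change of 0.04. None was called in edgeR or DESeq2, though DESeq2 gave no adjusted p for the tested gene with the lowest level. None had an unadjusted p under 0.05 in edgeR. The LXR genes NR1H2 (log2 fold change 0.09, adjusted p = 0.535 in edgeR) and NR1H3 (0.26, adjusted p = 0.265) were measured at 68.4 and 12.3 CPM in non-treated cells. SREBF1, the SREBP-1 gene and a classical LXR target, was at 244 CPM in non-treated cells and at 223 CPM in 6j treated cells (log2 fold change −0.13, adjusted p = 0.539 in edgeR). The transcripts of the LXR receptors were thus measured well in cells in which ABCA1 and ABCG1 were barely counted.

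Among other lipoprotein receptors, their ligands and adaptors, 18 of 21 genes were tested, and 0 were called in edgeR, where 5 had an unadjusted p under 0.05 and DESeq2 called 1. Over all 15957 rows tested in edgeR, 4175 had an unadjusted p under 0.05 and 1462 passed the adjusted p alone. DESeq2 called 774 of 22091 rows. With the replicate block 3 were called, each lower in 6j treated cells, against 6.47% of all rows under that fit (2.46% lower). These, named after their values were seen, were LRP1B (−0.62, adjusted p = 0.0268 in edgeR with the block), LRP2, the endocytic receptor megalin (−1.06, adjusted p = 0.00283), and OLR1, a receptor for oxidized lipoproteins (−0.59, adjusted p = 0.00227). Without the block their adjusted p in edgeR was 0.0678, 0.250 and 0.375, in that order. LRP5, a Wnt co-receptor (−0.54), and LRP3 (−0.56) passed the adjusted p threshold without the block at a change under 1.5-fold (adjusted p = 0.0235 and 0.0438 in edgeR). These were likewise chosen after their values were seen. RELN, the gene of the shared ligand of VLDLR and LRP8, and DAB1, the gene of their adaptor, were too low to be tested.

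Of 19 other genes of intracellular cholesterol transport and storage, 18 were tested and 0 were called in edgeR or DESeq2. DESeq2 gave no adjusted p for the tested gene with the lowest level. In edgeR 6 had an unadjusted p under 0.05. Over all 15957 rows tested, 4175 had such a p and 1462 passed the adjusted p alone. Of the 18 genes, 2 passed the adjusted p alone, both chosen after their values were seen. They were OSBPL2, an oxysterol binding protein gene (0.40, adjusted p = 0.0184 in edgeR), and ANXA6, whose product binds late endosomes (−0.52, adjusted p = 0.0109). The list of 6 other efflux genes had 5 members tested and 0 called in edgeR or DESeq2, with 1 at an unadjusted p under 0.05 and a median of 0.04.

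**Figure D4:**
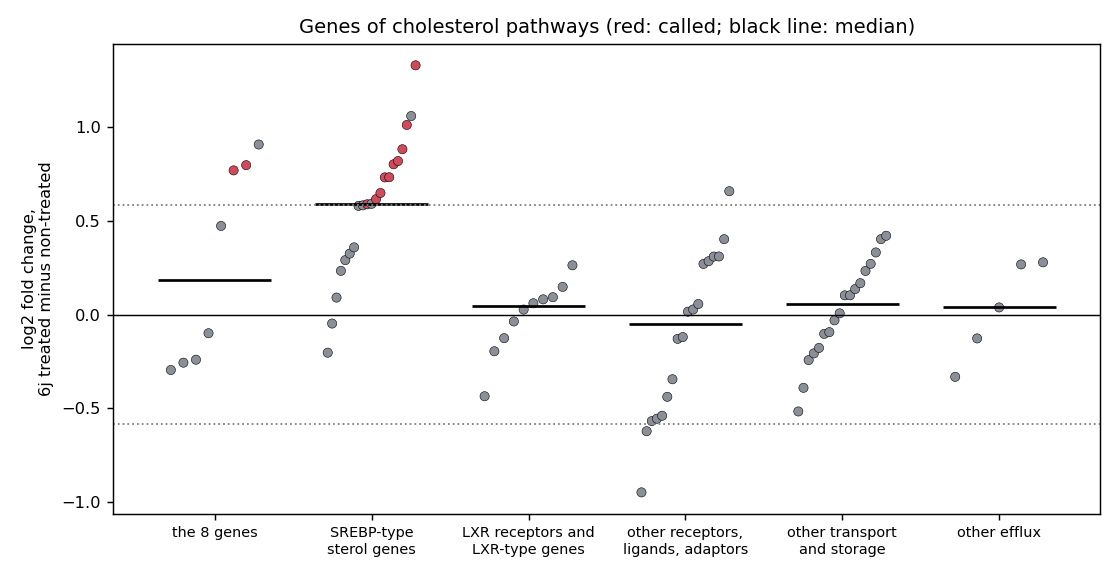
Log2 fold change of 6j treated minus non-treated cells (vertical axis) for each gene tested of the 8 genes and of the 5 pathway lists, with genes called in edgeR without the block in red, list medians as black lines and 1.5-fold as dotted lines. Called genes appear among the 8 genes (2) and the SREBP-type sterol genes (10) and in no other list.

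The genes whose log2 CPM followed a called gene most closely over the 6 libraries were sought among the Ensembl genes tested. For STARD4 they were ITGA1, a collagen receptor subunit gene (Pearson r = 0.998), CDR2 (0.998) and the pro-apoptotic BH3-only gene HRK (0.997). HRK was itself called as higher (log2 fold change 2.54, adjusted p = 0.0158 in edgeR), and ITGA1 and CDR2 were not called (log2 fold change 0.29 for both, adjusted p = 0.0686 and 0.0931). For NPC1 they included SLFN5 (r = 0.997) and AGAP4 (0.995), a gene with near-identical paralogs whose reads may have been shared. SLFN5 was called as higher (log2 fold change 0.66, adjusted p = 0.0190 in edgeR), and AGAP4 was not called (0.38, adjusted p = 0.132). The libraries share their groups, and such values at n = 6 are a description of likeness only.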

How the data were processed

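MHCC-97H cells were treated with 10 μM 6j or solvent for 16 h, and total RNA of 3 samples per group, labelled replicates 1 to 3, was enriched with oligo(dT) beads and sequenced. The table that the authors deposited holds raw whole-number counts of each gene. The submitters' processing notes name HISAT2, StringTie and GRCh38, without versions, and the counting program, annotation and strand setting are not given in the sources used here. No column was left out, and 5471 of the 25445 rows are new genes without an Ensembl identifier.

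The counts were filtered by filterByExpr (minimum count 10, minimum total 15), normalized by TMM and tested with edgeR 4.0.16 (limma 3.58.1, R 4.3.3) without covariates over 15957 rows. The study's DESeq2 (1.42.0 here) was an alternative, as were other normalizations, no filter, Ensembl rows only, the replicate block, no fold threshold and leaving out each library. DESeq2 with the block and the contrast with MYLIP alone were added after the data were seen. Standard errors came from the F statistic, and log2 CPM used a prior count of 2. The 8 genes, the 5 lists and the naming rule were chosen with earlier results of these data known. Named genes are the 8, the called list genes (at most the 5 with the smallest adjusted p), NR1H2, NR1H3, SREBF1, SREBF2 and INSIG1, and the 3 nearest genes of each called gene. One of the nearest genes of NPC1 is not reported here.

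The labels give both groups the same replicate numbers. Deviations from the group means correlated at 0.171, 0.18 and 0.312 for the same number and at −0.231 to 0.0795 for different numbers. As deviations within a group sum to 0, positive values for the same number pull the others below 0. The numbers were used as pairs in the block fits and in the changes within replicate numbers. The main test had no covariates and did not use them. In data simulated for this comparison (15957 genes, 3 draws, 200 changed genes each), edgeR recovered 30.1% of changes of 1.5-fold, 73.1% of changes of 2-fold and 91.5% of changes of 3-fold at an adjusted p under 0.05. No fold threshold was applied there, unlike in the calls. The changed genes were drawn only from genes at mean levels above those of ABCA1 and ABCG1, so these rates do not cover ABCA1 and ABCG1.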

Additional observations from a re-analysis of the deposited data

How the results depend on the processing

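Of the alternatives that kept all libraries, those with the replicate block or with DESeq2 moved VLDLR past the thresholds, at a log2 fold change of 0.92 in edgeR with the block (adjusted p = 0.00306), 0.91 in DESeq2 and 0.92 in DESeq2 with the block. The block changed the call of no other of the 8 genes. It raised the rows called in the whole table from 574 to 1033. DESeq2 gave 774 without the block and 875 with it, and the adjusted p alone gave 1462. Among other receptors, ligands and adaptors edgeR called 0 without the block and 3 with it, 1 by DESeq2, 2 by DESeq2 with the block and 2 by the adjusted p alone, which also passed 2 transport and storage genes. With each library left out once, the log2 fold changes ranged from 0.76 to 1.20 for VLDLR, 0.62 to 0.97 for NPC1, 0.37 to 0.60 for NPC2, 0.62 to 0.91 for STARD4, −2.36 to 0.32 for ABCA1 and −0.57 to 0.03 for ABCG1. ABCA1 was 0.12 without 6j treated replicate 2 and 0.32 without 6j treated replicate 3, and ABCG1 was 0.0303 without the latter. The number of the 8 genes called ranged from 0 to 4, that of the sterol genes from 2 to 13, that of the other receptors from 0 to 3 and that of all rows from 186 to 772. The difference between SREBP-type and LXR-type genes ranged from 0.78 to 1.86, the highest without 6j treated replicate 1, which held most ABCA1 counts. These fits have fewer libraries, and the cause was not tested further. DESeq2 gave no adjusted p for ABCA1 and ABCG1. Both genes had at most 30 counts in a library, which limits what can be said of them.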

Other observations

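The per-length levels also gave ratios within each library, which do not depend on library size. VLDLR was at 0.221, 0.365 and 0.296 of the LRP8 level in non-treated replicates 1, 2 and 3 and at 0.392, 0.679 and 0.729 in the 6j treated replicates. Relative to MYLIP, VLDLR was at 0.487, 0.660 and 0.359 in non-treated and at 0.823, 1.43 and 1.21 in 6j treated cells. Here the groups did not overlap, which follows from the separation of VLDLR and of MYLIP themselves. The ratio of NPC1 to NPC2 was 0.723, 0.627 and 0.451 in non-treated and 0.728, 0.724 and 0.792 in 6j treated cells, where replicate 1 hardly differed between the groups. These ratios were looked at after the data were seen and were not tested.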
